A study of Mus musculus with 18 samples.

Results

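MHC class I molecules display peptides from proteins made inside the cell, so that CD8+ T cells can inspect them. The 8 genes described here encode the display molecule, the machinery that fills it and a regulator of both: H2-K1, H2-D1, B2m, Tap1, Tap2, Tapbp, Nlrc5 and Erap1. The set is defined by gene name, and all 8 were found among the 14695 genes measured. The row of Nlrc5 had no name and was found by its identifier. RNA was sequenced from primary mouse CD8+ T cells from spleen and lymph node, cut with CRISPR/Cas9 at Rosa26 (a locus used as a control target), Atf4 or Cebpg. Cells of each genotype were cultured for 24 h without or with halofuginone, an inhibitor of prolyl-tRNA synthetase that mimics amino acid shortage, which gave 6 groups of 3 libraries and 18 libraries in all. All groups, the Rosa26 controls included, had therefore been through the CRISPR/Cas9 procedure. Whether replicate libraries stem from different animals or cultures is not stated in the labels; the p-values below therefore reflect library-to-library spread, which may be technical.

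A class I molecule is a heavy chain, such as those from H2-K1 and H2-D1, paired with the light chain beta-2-microglobulin from B2m. Peptides cut in the cytosol are pumped into the endoplasmic reticulum by the transporter made of Tap1 and Tap2, trimmed there by the aminopeptidase Erap1, and loaded onto the heavy chain with the help of tapasin, the product of Tapbp. Nlrc5 is the transactivator of class I genes: it joins a complex of RFX, CREB/ATF and NF-Y factors on their promoters, while NF-kB and interferon regulatory factors act through separate elements close by. ATF4 and its partner C/EBPg are transcription factors of the amino acid response that halofuginone sets off.

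The promoters of 6 of the 8 genes were found in the RefSeq tables for the GRCm38.p6 build; Tap2 and Nlrc5 were not. They are shown because H2-K1, H2-D1 and B2m all rose with halofuginone in Rosa26 cells, by different factors, as described below. The 200 bases before the start of H2-K1 lie at chr17:34000348-34000547 on the minus strand, and those before the start of B2m, with the last base left out, at chr2:122147487-122147685 on the plus strand. Capitals mark exact matches, on either strand, to GGG, any 2 bases, TT, any base and CC (NF-kB), TTTCNNTT (interferon regulatory factors), TGACG (the CRE core bound by CREB/ATF factors) and CCAAT (NF-Y).

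H2-K1: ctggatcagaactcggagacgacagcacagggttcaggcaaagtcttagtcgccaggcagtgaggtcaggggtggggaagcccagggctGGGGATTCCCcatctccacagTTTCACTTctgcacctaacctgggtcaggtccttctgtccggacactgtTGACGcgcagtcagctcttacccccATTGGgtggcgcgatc
B2m: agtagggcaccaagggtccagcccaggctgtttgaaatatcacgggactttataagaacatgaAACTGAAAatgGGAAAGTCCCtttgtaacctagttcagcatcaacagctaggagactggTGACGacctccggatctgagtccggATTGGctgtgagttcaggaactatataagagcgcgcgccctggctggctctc

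Shorter stretches allow the pair of heavy chains and Tap1 to be compared with these. For H2-D1 they are the stretch from the NF-kB to the interferon factor match, at chr17:35262923-35262951, and the stretch from the CRE core to the inverted CCAAT box, at chr17:35262993-35263022; for Tap1 the CRE core is shown with its flanks, at chr17:34187458-34187487, all on the plus strand.

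H2-K1, NF-kB to interferon factor match: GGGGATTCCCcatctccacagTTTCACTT
H2-D1, NF-kB to interferon factor match: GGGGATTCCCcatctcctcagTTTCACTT
H2-K1, CRE core to CCAAT box: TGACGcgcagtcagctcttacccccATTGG
H2-D1, CRE core to CCAAT box: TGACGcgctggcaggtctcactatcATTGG
B2m, CRE core to CCAAT box: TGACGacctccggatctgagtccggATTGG
Tap1, CRE core: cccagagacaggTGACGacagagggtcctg

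Within the 250 bases before the start, the NF-kB letters were found in 3 of the 6 genes (H2-K1, H2-D1 and B2m), against 4.71% of the 27025 genes with a RefSeq window. The interferon factor letters were found in the same 3 genes, against 23.9% of all genes. TGACG was found in 4 of 6, with Tap1 added, against 19.8%, and CCAAT in 5 of 6, all but Erap1, against 37.5%. TGATGNAA, the letters of the C/EBP-ATF response element used by ATF4 with C/EBPg, matched none of the 6, against 3.91% of all genes. For the 6 genes only the window of the most upstream start was searched, and any other starts were not. In the shares of all genes a gene counted if any of its windows matched. The counts and the shares are therefore unlike measures, and the absence of a match holds for the searched windows only. In H2-K1, H2-D1 and B2m alike 20 bases separate TGACG from ATTGG, the CCAAT box on the other strand. This spacing, searched for after it had been seen, was found in 26 of the 27025 genes, or 0.0962%, and among the genes listed in this text only in those 3 and H2-M3. The H2-K1 and H2-D1 windows share an exact stretch of 47 bases. These matches are letters in a window, and no binding was measured.

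The libraries held 14190361 to 20281602 counts on genes. All 8 of the listed CD8 T cell markers were measured, with a summed level of 4038 to 4121 CPM untreated and 3619 to 4296 CPM with halofuginone in Rosa26 cells (counts per 1e6 counts of the library, with library sizes scaled by the trimmed mean of M values, TMM). The same sum was 4055 to 4207 and 3170 to 3954 CPM in Atf4 KO cells, and 4063 to 4103 and 3314 to 3578 CPM in Cebpg KO cells, without overlap in either. Of the NK cell list 1 of 4, Nkg7, was measured, at 189 to 207 and 247.5 to 292 CPM in Rosa26, 228.5 to 243 and 239 to 318 CPM in Atf4 KO, and 197 to 209 and 237 to 265 CPM in Cebpg KO cells. Ncr1, Klrb1c and Klra8 of that list were not measured, so Nkg7 alone cannot show whether NK cells were present. Of the listed B cell markers 2 of 5 were measured and summed to at most 7.65 CPM, and of the myeloid and dendritic cell markers 3 of 11, summing to at most 15.8 CPM. In Rosa26 cells the sum of that last list was 7.81 to 10.35 CPM untreated and 13.3 to 15.8 CPM with halofuginone, and that of the CD4 T cell list, of which Zbtb7b and Foxp3 but not Cd4 were measured, was 8.19 to 9.09 and 33.6 to 36.3 CPM. That CD4 list summed to 11.8 to 13.9 and 17.0 to 20.4 CPM in Atf4 KO cells and to 9.74 to 12.4 and 15.4 to 17.4 CPM in Cebpg KO cells. The part of these markers in the results below was not tested. Atf4 RNA was 257 to 281 CPM in untreated Rosa26 cells and 274 to 301 CPM in untreated Atf4 KO cells, and Cebpg RNA was 52.8 to 55.15 CPM and 53.9 to 58.5 CPM in untreated Rosa26 and Cebpg KO cells. With halofuginone Cebpg was lower in Cebpg KO than in Rosa26 cells (log2 fold change -0.78, adjusted p = 3.19e-08), while Atf4 in Atf4 KO cells did not pass the test (log2 fold change -0.27, adjusted p = 0.0587). Cas9 cuts need not lower the RNA, so these levels do not check the labels. The halofuginone libraries Rosa26 replicate 2, Atf4 KO replicate 3 and Cebpg KO replicate 3 stand apart from the others of their groups in TEC share and Malat1. Genes that the GENCODE annotation classes as TEC (a provisional class) took 0.0542%, 0.0735% and 0.151% of their counts. The share was 0.189% to 0.302% in the other 6 halofuginone libraries. The nuclear RNA Malat1 was at 672, 1158 and 1960 CPM in those 3, against 2074 to 3580 CPM in the other 6. Untreated libraries differed by genotype in the same measures: the TEC share was 0.1% to 0.133% in Rosa26, 0.194% to 0.25% in Atf4 KO and 0.199% to 0.213% in Cebpg KO cells, and Malat1 was at 858 to 1168, 2026 to 2606 and 2048 to 2364 CPM. Spread of counts over genes (chi-square per degree of freedom) did not single out Cebpg KO halofuginone replicate 3. There replicates 1 and 2 differed most (27.1), then 2 and 3 (18.7), and 1 and 3 least (11.2). Among treated Rosa26 libraries the pairs with replicate 2 differed most (20.4 and 16.8, against 7.4). Among treated Atf4 KO libraries those with replicate 3 did (31.6 and 39.0, against 6.02). In bulk RNA a change in the number of cells of a type and a change in RNA per cell cannot be told apart.

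Per kilobase of exon, with all annotated exons of a gene joined, B2m was the most abundant of the 8 genes in all 6 groups. The order depends on that length, which was 2938 bases for H2-K1, 2579 for H2-D1, 5476 for Tap1 and 860 for B2m. Their longest coding transcripts have 1619, 2102, 2953 and 860 bases, and the order by those was not worked out. In untreated Rosa26 cells it stood at 1147 ± 30 CPM per kb (SD, n = 3), H2-D1 at 682 ± 16.9 and H2-K1 at 655 ± 29.9. The heavy chain ranges overlapped in every group, so their order by this length was not resolved. Below them by an order of magnitude came Tapbp at 64.6 ± 3.29 CPM per kb, Tap1 at 56.7 ± 2.46, Nlrc5 at 51.5 ± 3.76 and Tap2 at 48.9 ± 0.684, and last Erap1 at 26.1 ± 1.37. Tap1 and Nlrc5 overlapped, as did Nlrc5 and Tap2. With halofuginone Rosa26 cells held 1866 ± 190.3 CPM per kb of B2m, 904 ± 88.6 of H2-K1, 844 ± 87.0 of H2-D1 and 31.2 ± 1.14 of Erap1. Together the 8 genes took 0.572% ± 0.0169 of all counts in untreated Rosa26 cells and 0.837% ± 0.0115 with halofuginone. The shares were 0.759% ± 0.00712 and 1.00% ± 0.0596 in Atf4 KO cells, and 0.653% ± 0.00953 and 0.951% ± 0.0364 in Cebpg KO cells. The smallest count behind any value of the 8 genes was 3003, for Erap1.

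The first question was what halofuginone did to these genes in control cells. All 8 rose in Rosa26 cells, by 1.20 to 1.66 times, and in all 8 the treated libraries lay above all untreated ones, as they did for 27.2% of all genes. Transporter, tapasin, B2m and Nlrc5 RNA rose by 1.53 to 1.66 times, the heavy chains by 1.38 times (H2-K1) and 1.24 times (H2-D1), and the trimming enzyme Erap1 by 1.20 times. Halofuginone moved much of the transcriptome: 47.7% of all genes were called in either direction 23.6% higher and 24.1% lower, by edgeR's quasi-likelihood test at a Benjamini-Hochberg adjusted p under 0.05. The median log2 fold change was 0.63 over the 8 genes and 0.02 over all genes tested.

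**Figure D1:**
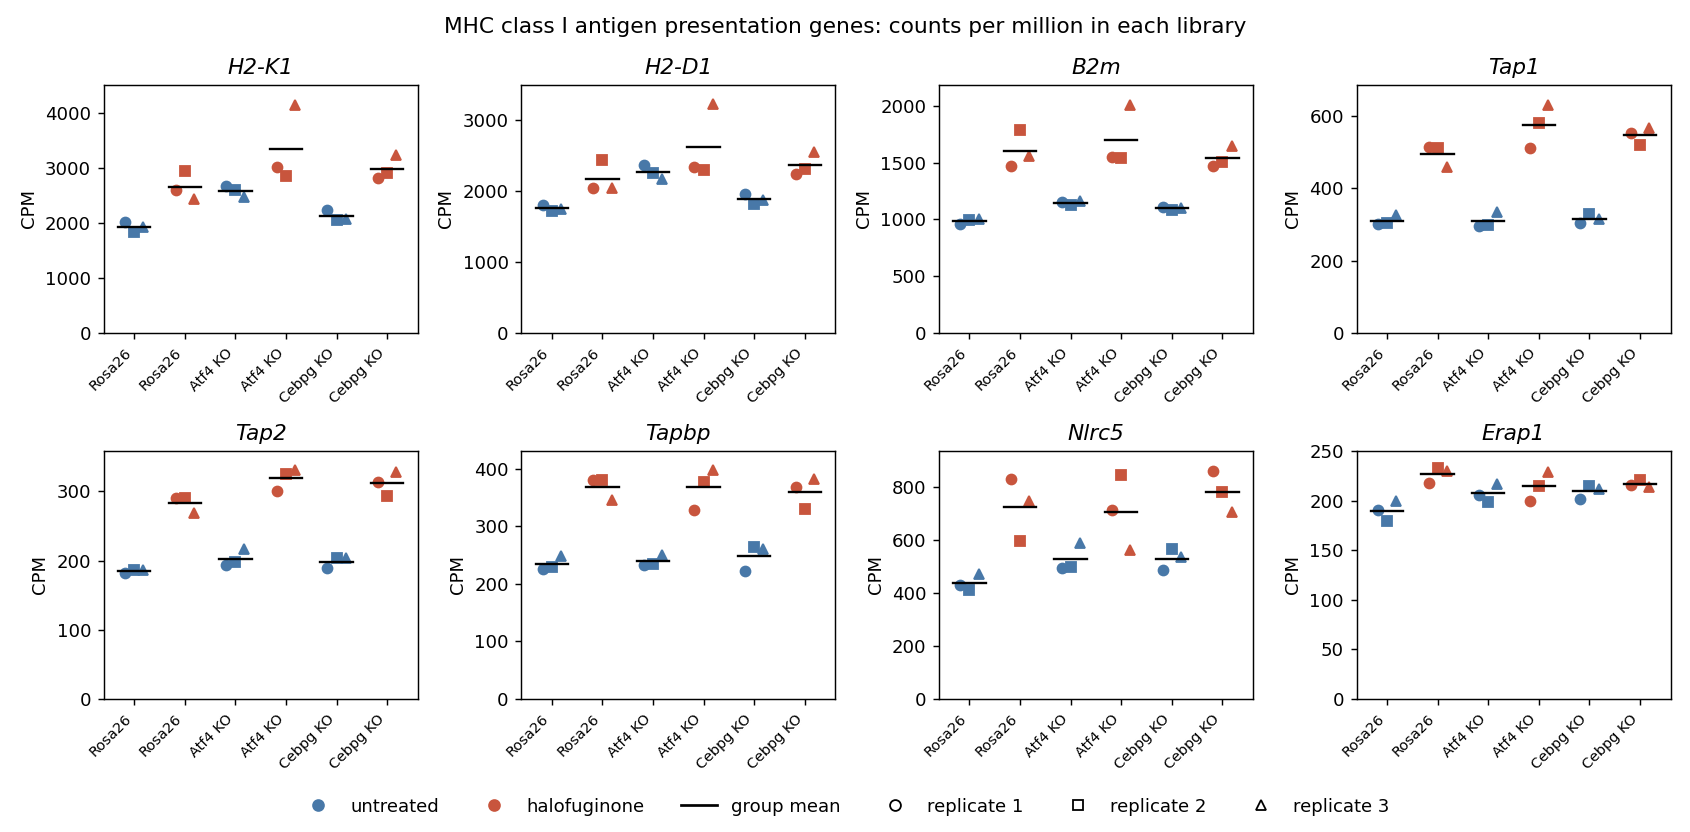
CPM (y axis, from 0) of each of the 8 genes in every library, with untreated libraries in blue, halofuginone libraries in red, a bar at the group mean (n = 3) and the replicate numbers as symbols. In Rosa26 cells the red points lie above the blue points for all 8 genes; Erap1 spans only 180 to 234 CPM over the 18 libraries, and the highest H2-K1, H2-D1 and B2m points are all Atf4 KO halofuginone replicate 3.

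H2-K1, a classical heavy chain, was at 2012, 1836 and 1925 CPM in the 3 untreated Rosa26 libraries and at 2595, 2940 and 2430 CPM with halofuginone. Every treated library was above every untreated one (log2 fold change 0.46 ± 0.11 SE, adjusted p = 0.00204). The Atf4 KO libraries went from 2682, 2610 and 2472 CPM to 3028, 2860 and 4142 CPM (log2 fold change 0.37 ± 0.11, adjusted p = 0.0102). The untreated Atf4 KO libraries lay within the range of the treated Rosa26 ones, and the third treated library, one of those that stand apart, was far above the rest. In Cebpg KO cells H2-K1 rose from 2242, 2061 and 2070 CPM to 2818, 2917 and 3230 CPM (log2 fold change 0.49 ± 0.11, adjusted p = 0.00111), without overlap.

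H2-D1, the other classical heavy chain, was at 1807, 1722 and 1749 CPM in untreated Rosa26 libraries and at 2049, 2435 and 2044 CPM in treated ones. The groups did not overlap, but the rise was the smallest among the heavy and light chains (log2 fold change 0.31 ± 0.11, adjusted p = 0.0255). The call was lost without untreated replicate 2, untreated replicate 3 or halofuginone replicate 2 (adjusted p 0.0651, 0.0654 and 0.0621). The Atf4 KO libraries of H2-D1 were at 2373, 2251 and 2172 CPM untreated and at 2337, 2298 and 3223 CPM treated, and the groups overlapped (log2 fold change 0.21 ± 0.11, adjusted p = 0.121). Treated replicates 1 and 2 lay within the untreated range, and only replicate 3, which stands apart, lay above it. Other settings placed it past the threshold there: relative log expression scaling, RLE (adjusted p = 0.0318), upper-quartile scaling (0.00705), the filter at 5 CPM (0.0179), DESeq2 (0.0150), and leaving out halofuginone replicate 2 (0.0363). These were 5 of 13 alternatives, over which the log2 fold change ran from 0.07 to 0.295 and the adjusted p reached 0.364. In Cebpg KO cells it rose from 1964, 1819 and 1880 CPM to 2238, 2313 and 2557 CPM (log2 fold change 0.33 ± 0.11, adjusted p = 0.0165), a call lost without untreated replicate 2 (0.0612) or halofuginone replicate 3 (0.0620).

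B2m, the light chain shared by all class I molecules, was at 957, 998 and 1005 CPM in untreated Rosa26 cells and at 1472, 1787 and 1554 CPM with halofuginone (log2 fold change 0.70 ± 0.09, adjusted p = 3.5e-06). It rose in Atf4 KO cells from 1151, 1129 and 1158 CPM to 1545, 1537 and 2007 CPM (log2 fold change 0.57 ± 0.09, adjusted p = 3.97e-05), and in Cebpg KO cells from 1112, 1085 and 1103 CPM to 1466, 1501 and 1643 CPM (log2 fold change 0.48 ± 0.09, adjusted p = 0.000209). In each genotype all untreated libraries lay below all treated ones.

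Tap1, one subunit of the peptide transporter, was at 302, 303 and 326 CPM in untreated Rosa26 libraries and at 513, 511 and 459 CPM in treated ones (log2 fold change 0.67 ± 0.08, adjusted p = 4.12e-07). The Atf4 KO libraries of Tap1 went from 295, 298 and 335 CPM to 510, 580 and 629 CPM, which was the largest drug effect measured on any of the 8 genes (log2 fold change 0.89 ± 0.08, adjusted p = 6.96e-09). The Cebpg KO libraries were at 304, 329 and 315 CPM untreated and 553, 519 and 565 CPM treated (log2 fold change 0.79 ± 0.08, adjusted p = 3.49e-08). The groups did not overlap in any genotype.

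Tap2, the partner subunit, moved by nearly the same factor in all genotypes. Rosa26 libraries were at 182, 186 and 187 CPM untreated and 290, 291 and 269 CPM treated (log2 fold change 0.61 ± 0.06, adjusted p = 6.11e-08). The rise was from 193, 198 and 218 CPM to 301, 326 and 331 CPM in Atf4 KO cells (log2 fold change 0.65 ± 0.06, adjusted p = 2.05e-08) and from 189, 203 and 204 CPM to 313, 294 and 328 CPM in Cebpg KO cells (log2 fold change 0.65 ± 0.06, adjusted p = 2.03e-08). Tapbp, which encodes the loading chaperone tapasin, was at 226, 229 and 248 CPM in untreated and 380, 380 and 345 CPM in treated Rosa26 cells (log2 fold change 0.65 ± 0.08, adjusted p = 1.16e-06). It went from 232, 234 and 251 CPM to 329, 377 and 398 CPM in Atf4 KO cells (log2 fold change 0.62 ± 0.08, adjusted p = 1.86e-06), and from 222, 263 and 261 CPM to 369, 330 and 382 CPM in Cebpg KO cells (log2 fold change 0.53 ± 0.08, adjusted p = 1.17e-05). Neither gene had a treated library within its untreated range.

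Nlrc5, the transactivator, rose in Rosa26 cells from 430, 410 and 472 CPM to 828, 595 and 747 CPM (log2 fold change 0.73 ± 0.14, adjusted p = 0.000233). In each genotype its lowest treated library was the one that stands apart. In Atf4 KO cells it was at 493, 498 and 588 CPM untreated and at 711, 845 and 560 CPM treated, and the groups overlapped through that library (log2 fold change 0.42 ± 0.14, adjusted p = 0.0147). The call was lost without halofuginone replicate 2 (log2 fold change 0.27, adjusted p = 0.101) or untreated replicate 1 or 2 (0.0586 and 0.0555). In Cebpg KO cells Nlrc5 rose from 486, 566 and 535 CPM to 859, 779 and 706 CPM (log2 fold change 0.56 ± 0.14, adjusted p = 0.00193), without overlap.

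Erap1, the aminopeptidase that trims peptides in the endoplasmic reticulum, was at 191, 180 and 200 CPM in untreated and 218, 234 and 230 CPM in treated Rosa26 cells (log2 fold change 0.26 ± 0.06, adjusted p = 0.00101). The groups did not overlap. In Atf4 KO cells it was at 207, 199 and 217 CPM untreated and 200, 215 and 229 CPM treated (log2 fold change 0.05 ± 0.06, adjusted p = 0.521). The Cebpg KO libraries were at 202, 215 and 212 CPM untreated and 216, 221 and 214 CPM treated (log2 fold change 0.05 ± 0.06, adjusted p = 0.505), a difference that passed the threshold with upper-quartile scaling (adjusted p = 0.0209) and among genes of at least 5 CPM in 3 libraries (0.0262). Erap1 was the only one of the 8 genes called in neither knockout.

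**Figure D2:**
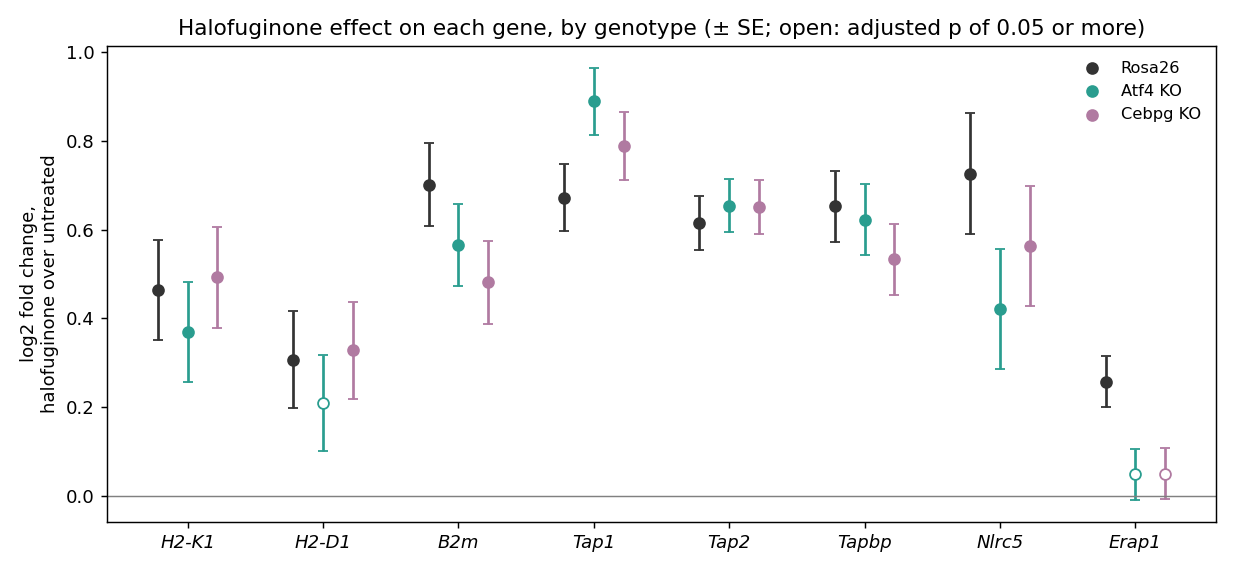
Log2 fold change of halofuginone over untreated cells (y axis) for the 8 genes in Rosa26, Atf4 KO and Cebpg KO cells, with bars of 1 SE; filled points passed the test at an adjusted p under 0.05. All 24 estimates are above 0, from 0.05 for Erap1 in the knockouts to 0.89 for Tap1 in Atf4 KO cells, and the open points are H2-D1 in Atf4 KO and Erap1 in both knockouts.

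Counted by genotype, 6 of 8 rose in Atf4 KO cells, where 23.1% of all genes were called higher, and 7 of 8 rose in Cebpg KO cells, where the share of genes called higher was also 23.1%. The medians over the 8 genes were 0.49 and 0.51, against -0.04 and -0.03 over all genes tested. The drug comparisons have no library in common between genotypes. Without the 3 libraries that stand apart the counts in Rosa26, Atf4 KO and Cebpg KO cells were 8, 6 and 7, and DESeq2 called 8, 7 and 7.

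The next question was whether either knockout changed the response to the drug. The interaction test in edgeR called 0 of the 8 genes for Atf4 KO against Rosa26 cells and 6.42% of all genes (37.5% of these higher, 59.0% with RLE scaling); 1 of 8, Erap1, had an unadjusted p under 0.05, and DESeq2 called 0. For Erap1 edgeR gave a drug effect that was smaller in Atf4 KO than in Rosa26 cells by a log2 difference of -0.21 ± 0.08 (adjusted p = 0.147) and smaller in Cebpg KO cells by -0.21 ± 0.08 (adjusted p = 0.239). It called 0 of the 8 genes for Cebpg KO against Rosa26 and 2.47% of all genes (15.2% of these higher, 40.7% with RLE and 33.1% with upper-quartile scaling), with 1 at an unadjusted p under 0.05 and 0 in DESeq2. Between the drug effects in the pair of knockouts it called 0 of 8 genes and 0.0136% of all genes (1 higher and 1 lower, but 9 and 2 with upper-quartile scaling), with 0 at an unadjusted p under 0.05 and 0 in DESeq2. Nlrc5 had the widest gap without a call, a drug effect lower by -0.30 ± 0.19 in Atf4 KO than in Rosa26 cells (adjusted p = 0.414). For Tap1 the gap was 0.22 ± 0.11 (adjusted p = 0.271). Without the 3 libraries that stand apart, B2m (-0.19, adjusted p = 0.0343) and Erap1 (-0.24, adjusted p = 0.0150) passed in the comparison of Atf4 KO with Rosa26.

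The knockouts were then compared with untreated Rosa26 cells; both comparisons use the same 3 Rosa26 libraries. In untreated Atf4 KO cells H2-K1 was 1.345 times (log2 fold change 0.43 ± 0.11, adjusted p = 0.0088) and H2-D1 1.29 times (0.36 ± 0.11, adjusted p = 0.018) the Rosa26 level, with no overlap between libraries. The TEC share, Malat1 and Nkg7 (log2 fold change 0.25, adjusted p = 0.042) were also higher in these Atf4 KO libraries, and their part was not tested. These 2 of 8 stand beside 11.7% of all genes called higher, so the count does not set the 8 genes apart. Of all calls in this comparison 44.9% were higher, 36.6% with RLE and 57.6% with upper-quartile scaling. The H2-D1 call was lost without Rosa26 untreated replicate 2 (adjusted p = 0.0588) or 3 (0.0531) or Atf4 KO untreated replicate 1 (0.0699). B2m was at 1146 CPM ± 14.9 (SD, n = 3) against 987 ± 25.8, a gap with no overlap that did not pass (log2 fold change 0.22 ± 0.09, adjusted p = 0.0954). Nlrc5 (0.27 ± 0.14, adjusted p = 0.157) and Tap2 (0.13 ± 0.06, adjusted p = 0.115) did not overlap either. The share of all genes without overlap was not worked out for this comparison, so lack of overlap does not set these genes apart. For Tap1 and Tapbp the libraries overlapped, with log2 fold changes of -0.00 ± 0.08 and 0.03 ± 0.08. In the main fit 5 of the 8 genes had an unadjusted p under 0.05, and DESeq2 called 3, with B2m added (adjusted p = 0.0471). The count was 6 without the 3 libraries that stand apart and 6 when fitted on the 6 libraries of this comparison alone, with B2m, Tap2, Nlrc5 and Erap1 added both times, and 5 with upper-quartile scaling or among genes of at least 5 CPM. Of all genes, 3097 were called higher without the 3 libraries and 2858 with the 6 libraries alone, against 1720 in the main fit. With upper-quartile scaling 2330 were.

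Untreated Cebpg KO cells had 0 of 8 genes called against Rosa26, where edgeR called 2.71% of all genes higher and 2.29% lower (54.1% of all calls higher, 26.2% with RLE scaling); 1 gene (Erap1, 0.14 ± 0.06, adjusted p = 0.144) had an unadjusted p under 0.05 and DESeq2 called 0. H2-K1 was 0.14 ± 0.11 and Nlrc5 0.27 ± 0.14 above Rosa26 on the log2 scale (adjusted p = 0.449 and 0.227). In 6 of the 8 genes the Cebpg KO libraries lay above all Rosa26 ones, as they did for 19.3% of all genes; TEC share and Malat1 were likewise higher in all 3 Cebpg KO libraries, and their part was not tested. Fitted on the groups compared alone 4 genes passed (H2-K1, B2m, Nlrc5 and Erap1), and without the 3 libraries that stand apart 3 did (H2-K1, B2m and Erap1). All genes called higher numbered 1835 and 1836 in these settings, against 398 in the main fit. Set directly against untreated Atf4 KO cells, Cebpg KO cells had 0 of 8 called, with 3.32% of all genes called. The heavy chains were lower in Cebpg KO cells at an unadjusted p under 0.05, H2-K1 by -0.28 ± 0.11 (adjusted p = 0.206) and H2-D1 by -0.26 ± 0.11 (adjusted p = 0.231), and DESeq2 called these 2.

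**Figure D3:**
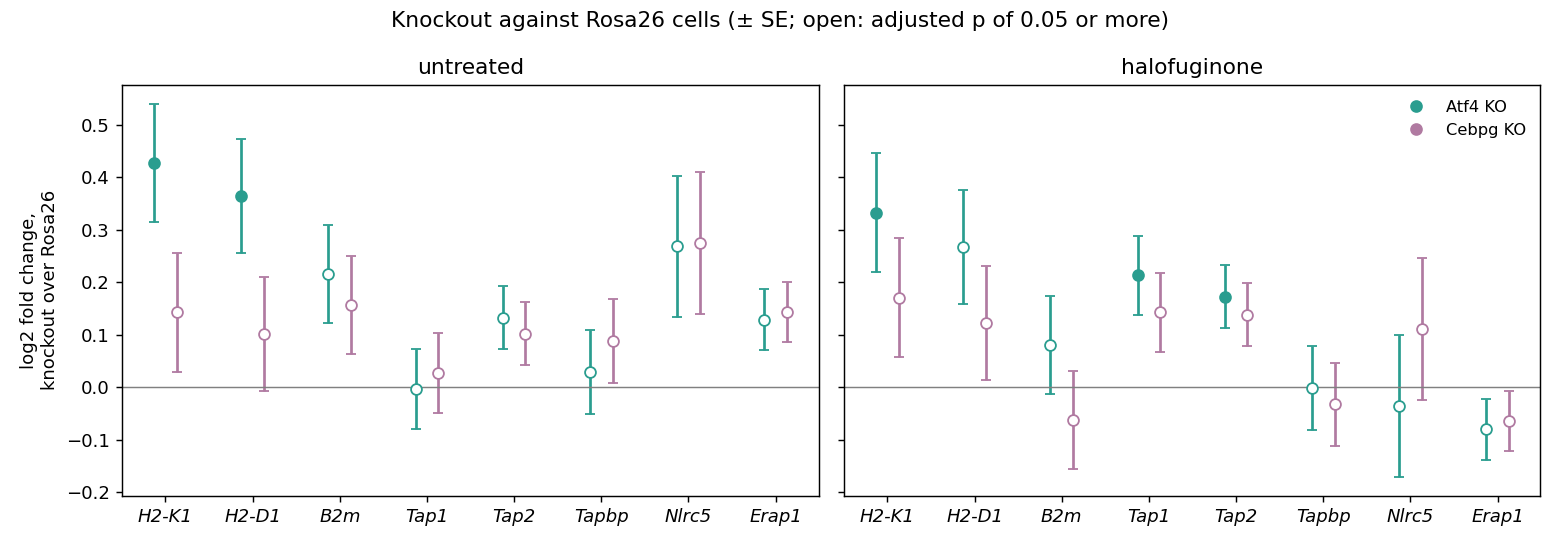
Log2 fold change of Atf4 KO and Cebpg KO over Rosa26 cells (y axis) for the 8 genes, untreated (left) and with halofuginone (right), with bars of 1 SE and filled points for an adjusted p under 0.05. Filled points are H2-K1 (0.43) and H2-D1 (0.36) in untreated Atf4 KO cells and H2-K1 (0.33), Tap1 (0.21) and Tap2 (0.17) in treated ones.

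With halofuginone, 3 of 8 genes were higher in Atf4 KO than in Rosa26 cells, against 11.8% of all genes (41.9% of all calls were higher, 52.2% with upper-quartile scaling): H2-K1 (0.33 ± 0.11, adjusted p = 0.0331), Tap1 (0.21 ± 0.08, adjusted p = 0.0408) and Tap2 (0.17 ± 0.06, adjusted p = 0.0372). Only the Tap2 libraries did not overlap. These calls were not stable: all 3 were lost in a fit on the 6 libraries compared and without Rosa26 halofuginone replicate 3 (adjusted p 0.125, 0.164 and 0.142), and H2-K1 and Tap1 were lost with the replicate number as a block (adjusted p = 0.0549 and 0.0508), which left Tap2. Leaving out Rosa26 halofuginone replicate 1 lost H2-K1 and Tap2, and leaving out Atf4 KO halofuginone replicate 2 lost Tap1 and Tap2. H2-K1 was also lost without Atf4 KO halofuginone replicate 3, where its log2 fold change was 0.18 in place of 0.33 (adjusted p = 0.0510). H2-D1 (0.27 ± 0.11, adjusted p = 0.075) passed under RLE scaling, upper-quartile scaling, the 5 CPM filter and DESeq2. In Cebpg KO cells 0 of 8 genes were called against Rosa26 with halofuginone, where 18.9% of all genes were called by edgeR (30.4% of these higher, 50.7% with upper-quartile scaling). Tap2 alone (0.14 ± 0.06, adjusted p = 0.121) had an unadjusted p under 0.05; DESeq2 called 1, and edgeR called it without Cebpg KO halofuginone replicate 2 (adjusted p = 0.0344). Between the treated knockouts edgeR called 0 of 8 and 1.00% of all genes, with 0 at an unadjusted p under 0.05 and 0 in DESeq2.

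Ratios of counts within a library do not depend on the scaling between libraries, and 6 were compared after the values had been seen. Tap1 and Psmb9, which encodes an immunoproteasome subunit, are neighbours transcribed away from each other from starts 225 bases apart. The Tap1 to Psmb9 ratio was 1.56, 1.43 and 1.57 in untreated and 2.36, 2.26 and 2.48 in treated Rosa26 libraries. It rose from 1.81, 1.88 and 1.94 to 3.06, 3.35 and 2.90 in Atf4 KO cells and from 1.78, 1.92 and 1.87 to 3.24, 2.71 and 2.68 in Cebpg KO cells, with no overlap in any genotype. Psmb9 itself did not pass the test in any genotype (log2 fold change 0.04, 0.17 and 0.17 in Rosa26, Atf4 KO and Cebpg KO cells, adjusted p = 0.769, 0.136 and 0.147). Tap2 and its neighbour Psmb8, another immunoproteasome subunit, parted further: their ratio was 0.305, 0.301 and 0.318 in untreated and 0.542, 0.492 and 0.559 in treated Rosa26 libraries. The mean ratio rose from 0.425 to 0.784 in Atf4 KO cells and from 0.389 to 0.733 in Cebpg KO cells. Psmb8 was lower with the drug in Cebpg KO cells (log2 fold change -0.26, adjusted p = 0.031) and did not pass in Rosa26 or Atf4 KO cells (-0.17 and -0.21, adjusted p = 0.173 and 0.085).

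**Figure D4:**
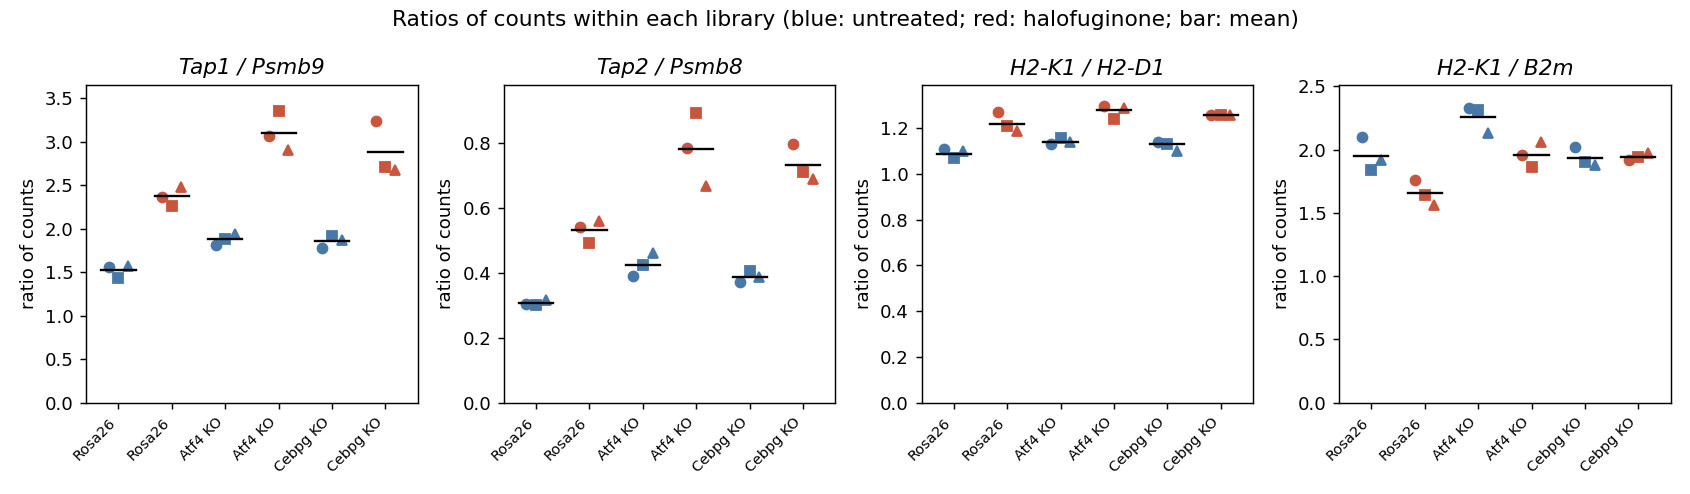
Ratio of counts of 2 genes within each library (y axes, from 0), with untreated libraries in blue, halofuginone libraries in red and a bar at the group mean (n = 3). Tap1 over Psmb9 rises from a mean of 1.52 to 2.37 in Rosa26 cells and Tap2 over Psmb8 from 0.308 to 0.531, while H2-K1 over B2m falls in Rosa26 and Atf4 KO cells only.

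Averaged over the genotypes, the drug raised the log2 ratio of Tap1 to Psmb9 by 0.66 and that of Tap2 to Psmb8 by 0.86, in an exact two-sided permutation test that exchanged treatment within genotype over all 8000 assignments (p = 0.00025 for each, the smallest this test can give; 0.000375 adjusted over the 6 ratios). H2-K1 gained on H2-D1: the ratio went from a mean of 1.09 to 1.22 in Rosa26, 1.14 to 1.28 in Atf4 KO and 1.13 to 1.26 in Cebpg KO cells. That is a log2 difference of 0.16, with the same exact p, and the libraries did not overlap in any genotype. B2m gained on H2-D1 by 0.30 (exact p = 0.00025, adjusted 0.000375). H2-K1 fell against B2m by a log2 difference of -0.14 (exact p = 0.0055, adjusted 0.0055), with -0.24 in Rosa26 and -0.20 in Atf4 KO cells but 0.01 in Cebpg KO cells. Tap1 gained on Tap2 by 0.14 (exact p = 0.0005, adjusted 0.0006), with 0.06, 0.23 and 0.14 in Rosa26, Atf4 KO and Cebpg KO cells. In Rosa26 cells the Tap1 to Tap2 ratio was 1.68 ± 0.0593 (SD, n = 3) untreated and 1.74 ± 0.0347 treated, with overlapping libraries.

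The rest of the class I pathway did not move as a block. The list counts below stand beside the shares of all genes called for the drug. Those were 23.6% higher and 24.1% lower in Rosa26, 23.1% and 26.5% in Atf4 KO, and 23.1% and 28.0% in Cebpg KO cells. Among the other class I and class I-like genes, 9 of 14 measured rose in Rosa26 cells and 1 fell. H2-Q4, H2-Q5 and H2-Q6, nonclassical heavy chains of the Qa region, rose from 339 to 627, 33.3 to 88.2 and 61.5 to 124 CPM (log2 fold changes 0.89, 1.41 and 1.01, adjusted p = 4.64e-09, 2.59e-12 and 4.95e-10). H2-T23, which encodes the Qa-1 heavy chain, rose by 0.76 (adjusted p = 1.32e-06), and H2-M3, named because its promoter holds the spaced letters, rose by 0.55 (adjusted p = 4.03e-06). In Atf4 KO cells 8 rose, and in Cebpg KO cells 10 rose and 1 fell. The drug effect was smaller in Atf4 KO than in Rosa26 cells for H2-Q5 (-0.46, adjusted p = 0.00575) and H2-T23 (-0.48, adjusted p = 0.0298). The H2-Q5 call held in 19 of 19 alternatives and that of H2-T23 in 10. Cd1d2, which encodes a CD1 lipid-presenting molecule, stayed under 1 CPM in all libraries. H2-Q6 shares 10.8% of its 100-base transcript windows exactly with other genes, H2-D1 4.64%, H2-Q4 2.66% and H2-K1 0%, so the H2-Q6 value is less certain. The windows of H2-Q5 were not searched. H2-Q5 does share windows with another H2-Q gene, so its rise and its interaction call may be less certain too.

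Among the interferon signalling genes 11 of 14 rose in Rosa26 cells and 1 fell, and 11 of 14 rose in each knockout. The median log2 fold change was 0.75 in Rosa26 cells. Ifngr1 and Ifngr2, the receptor chains for interferon gamma, rose from 217 to 705 CPM (1.70, adjusted p = 4.46e-13) and from 31.98 to 87.9 CPM (1.46, adjusted p = 4.79e-12), and the kinase Jak2 from 68.1 to 115 CPM (0.75, adjusted p = 5.19e-10). Socs1, an inhibitor of Janus kinases, rose by 0.74 (adjusted p = 1.2e-07). Ifng, the cytokine itself and chosen after its values were seen, was between 0 and 1.08 CPM over the 18 libraries and did not pass (0.56 ± 0.63, adjusted p = 0.501). Ifngr2 (0.36, adjusted p = 0.0445) and Jak2 (0.26, adjusted p = 0.0371) responded more in Atf4 KO than in Rosa26 cells, calls that held in 11 and 8 of 19 alternatives.

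Transcription factors with a known place at class I promoters were split, with 11 of 24 higher and 7 lower in Rosa26 cells and a median of 0.13. Of all genes 23.6% were called higher and 24.1% lower there. Relb, an NF-kB subunit, rose from 16.8 to 37.0 CPM (1.14, adjusted p = 1.61e-09) and the interferon regulatory factor Irf2 from 52.2 to 90.2 CPM (0.79, adjusted p = 3.24e-09). Irf1, named after its values were seen, rose from 166 to 407 CPM (1.29, adjusted p = 1.23e-07). Ezh2, the methyltransferase of the Polycomb repressive complex, fell from 242 to 147 CPM (-0.72, adjusted p = 6.08e-10). Of the RFX subunits, likewise named afterwards, Rfx5 fell from 13.1 to 8.23 CPM (-0.67, adjusted p = 0.000269), Rfxap rose from 19.4 to 23.45 CPM (0.27, adjusted p = 0.0316) and Rfxank did not pass (12.2 and 14.5 CPM, 0.26, adjusted p = 0.0726). Irf8, another interferon regulatory factor named afterwards, fell from 208 to 144.5 CPM (-0.53, adjusted p = 1.85e-05). The counts were 12 higher and 4 lower in Atf4 KO cells and 12 and 6 in Cebpg KO cells. Creb1 (0.37, adjusted p = 0.00328), Nfkb2 (0.37, adjusted p = 0.0156) and the NF-Y subunit Nfyc (0.45, adjusted p = 0.0161) had a drug effect that was higher in Atf4 KO than in Rosa26 cells, calls that held in 19, 19 and 18 of 19 alternatives.

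**Figure D5:**
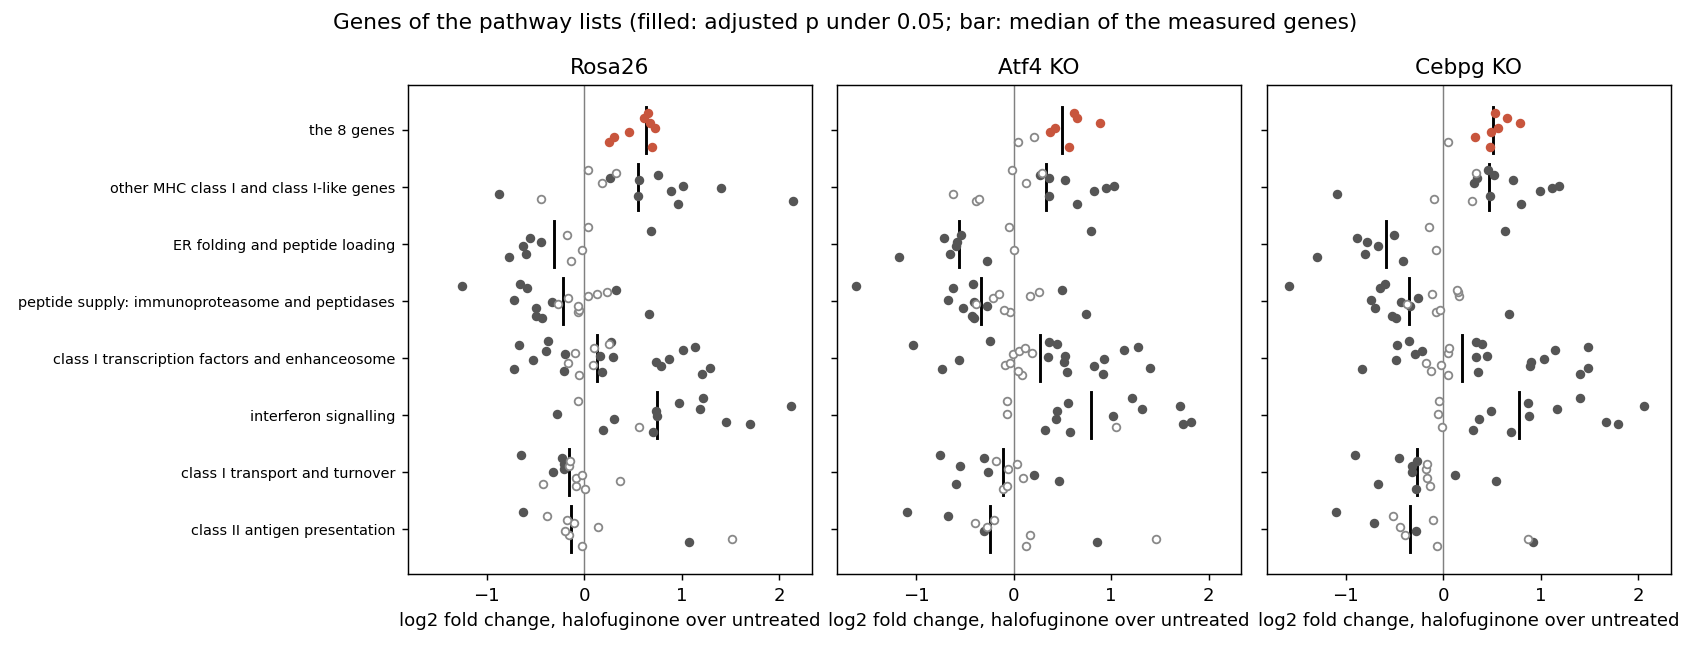
Log2 fold change of halofuginone over untreated cells (x axis) for every measured gene of the 8-gene set (red) and of each pathway list (grey), in the 3 genotypes; filled points had an adjusted p under 0.05 and bars mark the list medians. In Rosa26 cells the median is 0.63 for the 8 genes, 0.75 for interferon signalling and 0.56 for other class I genes, and below 0 for ER folding (-0.31), peptide supply (-0.22), transport (-0.16) and class II (-0.13).

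Chaperones and folding enzymes of the endoplasmic reticulum that serve class I but also all other secreted proteins were lower in 5 of 10 and higher in 1 of 10 in Rosa26 cells, where 24.1% of all genes were called lower. Calr (calreticulin) fell from 504 to 296 CPM (-0.77, adjusted p = 3.68e-07) and Canx (calnexin) from 422 to 280 CPM (-0.60, adjusted p = 4.66e-08). Both hold new heavy chains before loading. Pdia3, the thiol oxidoreductase of the loading complex, fell by -0.44 (adjusted p = 1.16e-05). The 1 that rose was Tapbpl, which encodes the tapasin-related peptide editor (0.69, adjusted p = 3.04e-07; 80.7 to 130 CPM), so both editors, tapasin and its relative, rose by a like factor. In each knockout 7 of 10 were lower and 1 higher, against 26.5% (Atf4 KO) and 28.0% (Cebpg KO) of all genes called lower. Calr fell further in Cebpg KO than in Rosa26 cells (-0.53, adjusted p = 0.0223; called in 14 of 19 alternatives), and Pdia3 (-0.33, adjusted p = 0.0631) and Prkcsh, a glucosidase subunit (-0.36 in Atf4 KO, adjusted p = 0.0676), did not pass.

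Peptide supply, the proteasome subunits and cytosolic peptidases, had 8 of 18 lower and 2 higher in Rosa26 cells, 9 and 2 in Atf4 KO cells and 10 and 1 in Cebpg KO cells. Of all genes 24.1%, 26.5% and 28.0% were called lower in these genotypes. Thop1, a peptidase that destroys peptides in the cytosol, fell from 78.5 to 33.0 CPM (-1.25, adjusted p = 2.98e-09), the tripeptidyl peptidase Tpp2 from 233 to 148 CPM (-0.65, adjusted p = 1.77e-08) and the proteasome activator Psme3 from 372 to 248 CPM (-0.59, adjusted p = 2.96e-07). Psme1, a subunit of the activator that favours class I peptides, did not pass (0.13, adjusted p = 0.229). Of the genes of class I transport and turnover 5 of 13 were lower in Rosa26 cells, a count that was 2 without halofuginone replicate 1 and 3 without halofuginone replicate 3, untreated replicate 1 or untreated replicate 2. In Atf4 KO cells 5 were lower and 2 higher, and in Cebpg KO cells 7 and 2. Vcp, the ATPase that extracts proteins for degradation, fell by -0.65 (adjusted p = 2.82e-07), and Sec22b and Tmed10, which act in vesicle traffic, by -0.32 and -0.23 (adjusted p = 0.000524 and 0.00948). Stx4a (-0.40, adjusted p = 0.0427) and Rab14 (0.23, adjusted p = 0.0455) had different drug effects in Atf4 KO and Rosa26 cells, lower and higher, in 7 of 19 alternatives each, and Derl1 did not pass (-0.13, adjusted p = 0.462).

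Class II antigen presentation, the work of specialised presenting cells, had 1 of 10 measured genes higher and 1 lower in Rosa26 cells, where 23.6% of all genes were called higher and 24.1% lower. In each knockout 1 was higher and 3 were lower. The 3 lower calls became 1 without Atf4 KO halofuginone replicate 2, and in Cebpg KO cells without untreated replicate 1 or 3 or halofuginone replicate 1 or 2. In Rosa26 cells the higher one, Ctss (cathepsin S), went from 37.4 to 79.2 CPM (1.08, adjusted p = 3.35e-08). The lower one, Ifi30, a lysosomal thiol reductase, went from 29.9 to 19.4 CPM (-0.63, adjusted p = 9.92e-05). The class II chain H2-Aa was at 0.0601 to 1.01 CPM in the 18 libraries and H2-DMb2 at 1.78 to 4.86 CPM.

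Genes that followed the 8 across libraries were ranked by Pearson correlation of log2 CPM over the 18 libraries among 9716 genes, as a description, since the libraries share treatment, genotype and library quality. Tap1 and Tap2 were each among the other's first 3 (r = 0.989). Tap1 was followed by Fosl2 (0.988) and Klrk1 (0.985), and Tap2 by Ifi209 (0.993) and Apol7e (0.989). Tapbp lay nearest Tap1, Igtp and Gbp5 (0.975 each), the last 2 interferon-inducible GTPases. H2-K1 and H2-D1 followed each other (0.979) and Ltb (0.980 and 0.975), with Itm2c (0.982) and Snhg5 (0.966) completing their lists. B2m was nearest Selplg (0.987), Cytip (0.984) and Epb41l4aos (0.981), and none of the other 7 genes ranked above place 206 for it. Nlrc5 was nearest Atm (0.973), Lpp (0.972) and Kmt2d (0.968), and H2-D1 was at place 3201 in its order (0.393). Erap1 followed Cd69 (0.882), B3galt4 (0.870) and Slc66a3 (0.868) and had B2m at place 47 (0.753).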

How the data were processed

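The deposited table holds raw counts per gene for 18 libraries, per the file headers; per the submitters' processing notes the authors used FastQC, MultiQC, Trimmomatic, STAR, HTSeq and edgeR with GRCm39. The tool versions, annotation, counting strand and mouse strain were not given in the sources used here, and heavy chain genes differ between strains. Libraries were made with dUTP, which marks strand, per the labels' protocols. Exons of Tap1 overlap Psmb9, those of Erap1 Cast, and those of Tap2, Tapbp and Nlrc5 minor genes in the GENCODE M21 annotation (GRCm38), whose exon lengths gave CPM per kb. Of 449 rows without a name, Nlrc5 among them, 431 were named by identifier; 14695 genes were tested.

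Counts were fitted with edgeR 4.0.16 (R 4.3.3; TMM, robust quasi-likelihood, 6 group terms, 18 libraries), adjusted by Benjamini-Hochberg over all genes of each of 12 comparisons, at 0.05. A check on simulated counts, with means and spreads taken from this fit, was run afterwards, and its outcome is not given here. Log2 CPM used a prior count of 2. DESeq2 1.42.0, other scalings, a filter, a replicate block and left-out libraries were alternatives. The text names the 8 genes and, per list, the 3 smallest p for the drug in Rosa26 cells and the 3 smallest for an interaction, with Psmb8 and Psmb9 and, as exceptions chosen after their values were seen, H2-M3, Ifng, Irf1, Irf8 and the RFX subunits, and for likeness the 3 highest correlations among named genes of at least 5 CPM. The 8 genes and all lists were chosen with earlier results of these data known. Libraries of a group differed by more than sampling noise. One gene of the interferon signalling list is not reported here by name.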

Additional observations from a re-analysis of the deposited data

Results flagged for a closer look

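None of the 8 class I genes met a criterion for a closer look, and 10 genes of the pathway lists did, each because its halofuginone effect differed between a knockout and Rosa26 cells by edgeR's interaction test. In Atf4 KO cells the drug effect was lower for H2-Q5 by a log2 difference of -0.46 (adjusted p = 0.00575) and for H2-T23 by -0.48 (adjusted p = 0.0298). It was higher for Creb1 by 0.37 (adjusted p = 0.00328), for Nfkb2 by 0.37 (adjusted p = 0.0156) and for Nfyc by 0.45 (adjusted p = 0.0161). Ifngr2 was higher by 0.36 (adjusted p = 0.0445) and Jak2 by 0.26 (adjusted p = 0.0371). Stx4a was lower by -0.40 (adjusted p = 0.0427) and Rab14 higher by 0.23 (adjusted p = 0.0455). In Cebpg KO cells the effect on Calr was lower by -0.53 (adjusted p = 0.0223).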

How the results depend on the processing

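No value changed direction past the threshold, and the drug counts of the 8 genes were 8, 6 and 7 in Rosa26, Atf4 KO and Cebpg KO cells both with and without the 3 libraries that stand apart; leaving out 1 library at a time gave 7 to 8, 5 to 6 and 6 to 7. The knockout and interaction counts depended on the setting, and the cause was not tested. For untreated Atf4 KO against Rosa26 the count of the 8 genes was 5 with upper-quartile scaling, 5 with the filter, 6 in a fit of only the groups compared and 6 without the 3 libraries (1 to 2 leaving out 1 library), and the count over all genes 6086 and 6158 in the last 2 settings. For untreated Cebpg KO against Rosa26 all-gene counts were 1536 with RLE scaling, 1308 with the filter, 2020 in DESeq2, 4113 with only the groups compared and 3929 without the 3 libraries (203 to 325 leaving out 1), against 735; of the 8 genes 1 was called with upper-quartile scaling, 1 with the filter, 4 with only the groups compared and 3 without the 3 libraries. For untreated Cebpg KO against Atf4 KO they were 809 with the filter, 915 in DESeq2, 1716 with only the groups compared and 1737 without the 3 libraries (160 to 264 leaving out 1), against 488, and 2 of the 8 genes were called with upper-quartile scaling, in DESeq2, with only the groups compared and without the 3 libraries. With halofuginone, Atf4 KO against Rosa26 gave 1 of the 8 genes with the replicate block and 0 with only the groups compared (0 to 4 leaving out 1), with 2373 of all genes in the latter. Cebpg KO against Rosa26 gave 1 with RLE scaling, 3 with upper-quartile scaling, 2 with the filter, 1 in DESeq2 and 2 without the 3 libraries (0 to 1 leaving out 1; all genes 1775 to 2872). Treated Cebpg KO against Atf4 KO had 147 genes called, and 223 with RLE, 291 with upper-quartile scaling, 353 with the filter, 90 with the replicate block, 501 in DESeq2, 1 with only the groups compared and 721 without the 3 libraries (22 to 404 leaving out 1). The interaction with Atf4 KO gave 943 genes, and 1508 in DESeq2, 617 with only the groups compared and 2194 without the 3 libraries (650 to 1479 leaving out 1), with 2 of the 8 genes called without the 3 libraries. That with Cebpg KO gave 363, and 648 in DESeq2 and 1051 without the 3 libraries (210 to 434 leaving out 1). That between the knockouts gave 2, and 11 with upper-quartile scaling, 9 with the filter, 53 in DESeq2 and 63 without the 3 libraries (1 to 4 leaving out 1). Whether replicate numbers pair the samples is not stated in the labels, and the correlations cannot decide it. Of 45 correlations between same-numbered samples 13 were over 0.1 (-0.78 to 0.66), and both extremes involve libraries that stand apart. The replicate block moved no other count of the 8 genes or of all genes by more than 1.5 times. Without the 3 libraries, higher and lower calls for the drug in Rosa26 cells were 11 and 1 for other class I genes, 1 and 7 for ER folding, 3 and 10 for peptide supply, 11 and 7 for transcription factors, 11 and 1 for interferon signalling, 1 and 5 for transport and 1 and 2 for class II. Over the pathway list genes named, 2727 alternative values kept their side of the threshold, 90 gained a call and 94 lost one. The ratios kept their direction and side of the threshold in all alternatives run, with adjusted p of at most 0.0125 leaving out 1 library; the ratios, list counts and their alternatives were chosen after seeing the data.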
